A study of Mus musculus with 2 samples.

Results

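The laminin chain genes Lama1, Lama2, Lama3, Lama4, Lama5, Lamb1, Lamb2, Lamc1 and Lamc3 were followed in total RNA from newborn mouse heart. They were picked by gene symbol, with no measured value in the choice, and made up 9 of the 43346 genes in the deposited gene tables. The series held 1 group, hearts of mice of strain B6NTac;B6NCrl/Lap at postnatal day 0, both sexes pooled, with no treatment or mutant allele named. It had 2 biological replicates, of which replicate 1 pooled 15 mice and replicate 2 a number that the labels do not give. Both carried the same donor label. RNA above 200 nucleotides was freed of ribosomal RNA and read in stranded pairs.

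Laminins are large secreted proteins of basement membranes, the thin matrix sheets that underlie epithelia and endothelia and wrap muscle cells. Each laminin is a trimer of 1 alpha, 1 beta and 1 gamma chain joined along a coiled coil. It is named by its chains, so that α4β1γ1 holds the products of Lama4, Lamb1 and Lamc1. The short arms of most chains polymerise into a network, while the globular end of the alpha chain binds integrins and dystroglycan on the cell surface. In the heart, alpha2 laminins lie around cardiomyocytes, and alpha4 and alpha5 laminins lie in the walls of blood vessels.

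Expected counts of all genes summed to 69946215 in replicate 1 and 73615802 in replicate 2, and the 9 laminin chains held 125162 and 130046 of them, or 0.179% and 0.177%. Levels are given in TPM, a measure that divides counts by the length of the transcripts, so that genes can be compared with each other. A mean carries the SD over the 2 replicates. The labels call the replicates independent isolates, and with 1 group and n = 2 there was no comparison between conditions and no p-value. Hearts were measured whole, so fewer cells of a type and less RNA per cell cannot be told apart. Cardiomyocyte markers were high in both libraries, with 5 of 5 detected and a summed level of 9496 TPM in replicate 1 and 9748 TPM in replicate 2.

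Of the 9 chains, 6 were detected, meaning 1 TPM or more in both replicates. Over all genes 24.2% passed this line, and over protein-coding genes 47.1% did. The detected chains were Lama2, Lama4, Lama5, Lamb1, Lamb2 and Lamc1, and they ranged in mean level from 17.9 to 52.3 TPM. Lama1, Lama3 and Lamc3 stayed under 1 TPM in both replicates. Each of the 6 stood above at least 77.1% of all detected genes in mean level.

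Several laminin genes carry short or intron-retaining transcripts beside the one that encodes the long chain, and these bear on the levels below. Short transcripts weigh heavily in TPM because few fragments are divided by a small length. For this reason each level is also given for the full-length coding transcripts alone, those whose coding part is at least 80% as long as the longest of the gene. This rule was chosen after the values were seen. It took 11 of the 44 annotated transcripts of the 9 genes. The sequences that tell the transcripts apart are shown for Lama2 and Lama5, the chains whose gene levels differed most from their full-length levels or moved most between the replicates. They are 25 bases on each side of a boundary in the GENCODE M21 transcripts on GRCm38, read 5′ to 3′ on the minus strand, where both genes lie. Capitals mark the bases after the boundary.
Lama2-201: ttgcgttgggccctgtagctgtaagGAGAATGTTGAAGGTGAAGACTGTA
Lama2-204: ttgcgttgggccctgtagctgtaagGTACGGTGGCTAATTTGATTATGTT
Lama5-201: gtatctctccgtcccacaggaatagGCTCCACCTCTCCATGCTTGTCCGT
Lama5-202: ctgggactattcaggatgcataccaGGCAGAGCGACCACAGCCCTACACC

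In Lama2-201, which encodes the long alpha2 chain, exon 10 ends at base 27344413 of chromosome 10 and is joined to exon 11, which starts at 27328185. Lama2-204 shares the end of exon 10 and runs on from 27344412 into 162 bases of the intron that follows. In Lama5-201, which encodes the long alpha5 chain in 79 exons, exon 72 ends at 180178277 of chromosome 2 and exon 73 starts at 180178204. Lama5-202 instead joins base 180178340, inside exon 72, to base 180177807, inside exon 74. It leaves out the last 63 bases of exon 72, all of exon 73 and the first 92 bases of exon 74. The annotation gives Lama5-202 no coding part, and it is 451 nucleotides long against 11388 for Lama5-201.

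Among the alpha chains, Lama4 was the highest. Lama4 (ENSMUSG00000019846.7, chromosome 10, 38965515 to 39110188, plus strand) encodes an alpha chain of small vessels and muscle whose short arm lacks the domain used for polymerisation. It stood at 32.19 TPM in replicate 1 and 31.61 TPM in replicate 2, a mean of 31.9 ± 0.410 (SD, n = 2). Its full-length transcript Lama4-201 held 30.14 and 28.63 TPM and 98.0% and 96.2% of the gene's fragments. Both ways of measuring gave nearly equal replicates, and the deposited intervals of the gene TPM overlapped.

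Lama5 (ENSMUSG00000015647.9, chromosome 2, 180176373 to 180225859, minus strand) encodes the longest laminin chain, common in epithelial and vessel basement membranes. Its gene level was 18.12 TPM in replicate 1 and 25.26 TPM in replicate 2, a mean of 21.7 ± 5.05 (SD, n = 2), so replicate 2 was higher. The fragments behind these levels were close, 18854 and 19557. Lama5-202 held 22.17 fragments in replicate 1 and 171.27 in replicate 2, which is 0.118% and 0.876% of the gene's fragments. The same fragments made up 7.15% and 37.57% of the gene's TPM, or 1.30 and 9.49 TPM. The full-length transcript stood at 16.04 and 15.77 TPM, a mean of 15.9 ± 0.191 (SD, n = 2), so the full-length level was slightly lower in replicate 2 where the gene level was higher.

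Lama2 (ENSMUSG00000019899.11, chromosome 10, 26980036 to 27619758, minus strand) encodes the alpha chain of the muscle cell surface, and its loss causes congenital muscular dystrophy. Its gene level was 15.67 TPM in replicate 1 and 20.18 TPM in replicate 2, a mean of 17.9 ± 3.19 (SD, n = 2). The full-length Lama2-201 held 7.86 and 8.83 TPM, a mean of 8.35 ± 0.686 (SD, n = 2). The retained-intron transcript Lama2-204 took 725.62 and 1428.63 fragments, which gave it 31.38% and 45.69% of the gene's TPM. Lama2-204 thus had the larger share of TPM in replicate 2, whereas Lama2-201 led in replicate 1 with 50.17%. A further retained-intron transcript, Lama2-202, took 18.28% and 9.52%. By fragments, Lama2-201 held 83.9% and 81.4% of the gene in the 2 replicates. Lama2 was the one chain of the 9 whose leading transcript by TPM differed between replicates. Among the 6 detected chains, each with several transcripts, 5 kept their leading transcript. It was the same in 66.0% of the 8394 genes that had at least 2 transcripts and a mean of 1 TPM or higher.

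The other alpha chains were low. Lama3 (ENSMUSG00000024421.12, chromosome 18, 12333819 to 12583013, plus strand) encodes the alpha chain of epithelial laminin in skin. It stood at 0.29 TPM from 311 fragments in replicate 1 and at 0.68 TPM from 773 fragments in replicate 2. Every Lama3 fragment was assigned to the long transcript Lama3-201, and the shorter Lama3-202 was listed at 0. Lama1 (ENSMUSG00000032796.7, chromosome 17, 67697259 to 67822647, plus strand) encodes the alpha chain of the early embryo, and had 94 and 33 fragments, or 0.10 and 0.03 TPM. Its mean of 0.065 ± 0.049 TPM (SD, n = 2) was the lowest of the 9 chains.

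Lamb1 and Lamb2, the beta chains among the 9 genes, were abundant and close to each other. Lamb1 (ENSMUSG00000002900.11, chromosome 12, 31265234 to 31329644, plus strand) encodes the widespread beta chain. Its gene level was 49.28 TPM in replicate 1 and 49.96 TPM in replicate 2, a mean of 49.6 ± 0.481 (SD, n = 2). Its full-length transcripts Lamb1-201 and Lamb1-205 together held 47.87 and 49.27 TPM. Lamb2 (ENSMUSG00000052911.5, chromosome 9, 108479736 to 108490530, plus strand) encodes the beta chain of the neuromuscular junction, the kidney filter and arteries. Its gene level was 41.85 and 48.04 TPM, and its full-length level was 35.81 and 37.19 TPM. As in Lama5, short transcripts made much of the difference between these scales. Lamb2-207, of 473 nucleotides, took 12.82% and 4.29% of the gene's TPM, and Lamb2-206, of 345 nucleotides, took 0% and 15.11%, while the full-length transcript held 99.3% and 99.4% of the fragments.

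The log2 ratio of Lamb1 to Lamb2 was 0.24 in replicate 1 and 0.06 in replicate 2 by gene TPM, and 0.42 and 0.40 by full-length TPM. Lamb1 was the higher of the pair in both replicates on both scales, whereas by posterior mean TPM, another deposited estimate, it stood at 49.15 and 49.75 and Lamb2 at 45.04 and 53.21, so that Lamb2 was the higher in replicate 2. Neither ratio reached 2.15, the 95th percentile of absolute log2 differences between the replicates over the 11594 genes whose mean was at least 1 TPM. Nor did either reach 1.28, the same percentile over the 3759 genes at 10 to 100 TPM. Both percentiles describe the same gene between the replicates by gene TPM. They do not measure the spread of a ratio between different genes within a replicate, and were not computed by full-length TPM.

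Of the gamma chains followed here, Lamc1 and Lamc3, Lamc1 was by far the higher. Lamc1 (ENSMUSG00000026478.10, chromosome 1, 153218922 to 153332786, minus strand) encodes the gamma chain of most laminins. Its gene level was 55.93 TPM in replicate 1 and 48.76 TPM in replicate 2, a mean of 52.3 ± 5.07 (SD, n = 2), the highest gene level of the 9. Its full-length level was 34.86 and 31.12 TPM, since Lamc1-204, a transcript of 1447 nucleotides with a coding part of 310, took 37.28% and 32.96% of the TPM from 8.63% and 7.52% of the fragments. Unlike Lama5 and Lama2, Lamc1 was lower in replicate 2 on both scales.

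Lamc3 (ENSMUSG00000026840.10, chromosome 2, 31887291 to 31946539, plus strand) encodes a gamma chain known from brain, retina and other tissues. It had 231 fragments in replicate 1 and 85 in replicate 2, for 0.46 and 0.17 TPM. The log2 ratio of Lamc1 to Lamc3 was 6.64 and 7.50 by gene TPM and 5.96 and 6.85 by full-length TPM, beyond 2.15 on both scales. The posterior mean TPM of Lamc3 was 0.97 and 0.70. In that estimate the 292-nucleotide transcript Lamc3-202, which had 0 fragments in the expected counts, took 52.10% and 76.30% of the gene.

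**Figure D1:**
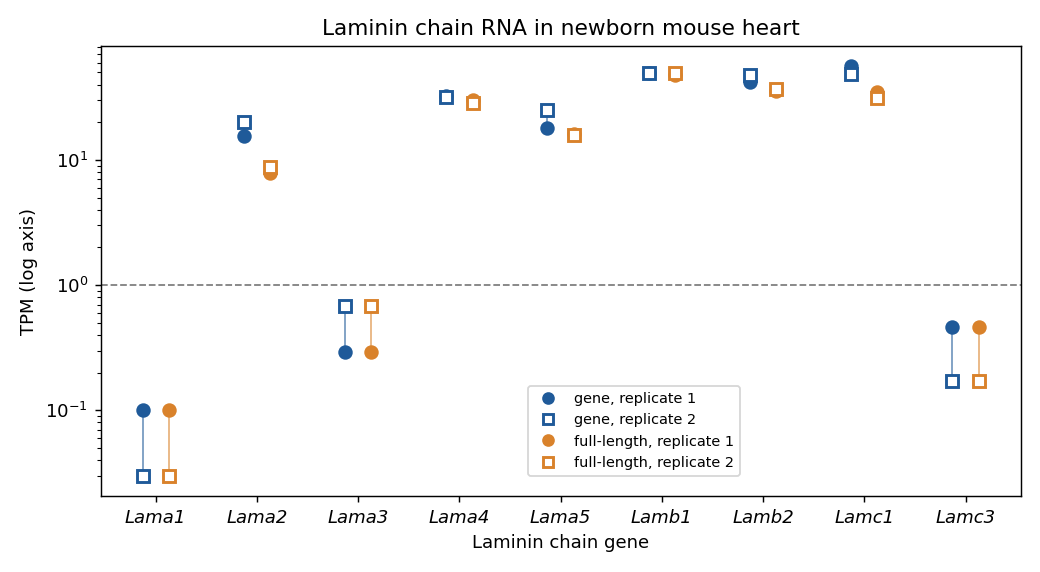
TPM of each laminin chain gene (log axis) in replicate 1 (filled circles) and replicate 2 (open squares), for all transcripts of the gene (blue) and for the full-length coding transcripts alone (orange), with a dashed line at 1 TPM. The 6 detected chains lie far above the line and Lama1, Lama3 and Lamc3 below it, and the blue points of Lama5, at 18.12 and 25.26 TPM, lie apart while its orange points, at 16.04 and 15.77 TPM, overlap.

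The order of the chains depended on which transcripts were counted. By mean gene TPM it ran Lamc1, Lamb1, Lamb2, Lama4, Lama5, Lama2, Lama3, Lamc3 and Lama1. In 5 of the 8 neighbouring pairs the replicates of the higher chain lay above those of the lower, and the pairs that overlapped were Lamc1 with Lamb1, Lama5 with Lama2, and Lama3 with Lamc3. By full-length TPM Lamc1 moved from the first place to behind Lamb1 and Lamb2, and 7 of the 8 neighbouring pairs lay apart, all but Lama3 with Lamc3. Lama5 was above Lama2 by 1.02 and 0.83 on the log2 scale by full-length TPM, against 0.21 and 0.32 by gene TPM. Lama4 was above Lama2 by 1.93 and 1.69 by full-length TPM and by 1.03 and 0.64 by gene TPM, and no value reached 2.15. Both full-length values lay beyond 1.28, the limit from genes at 10 to 100 TPM, and those by gene TPM did not. The full-length mean of Lama2, 8.35 TPM, lay below that range.

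**Figure D2:**
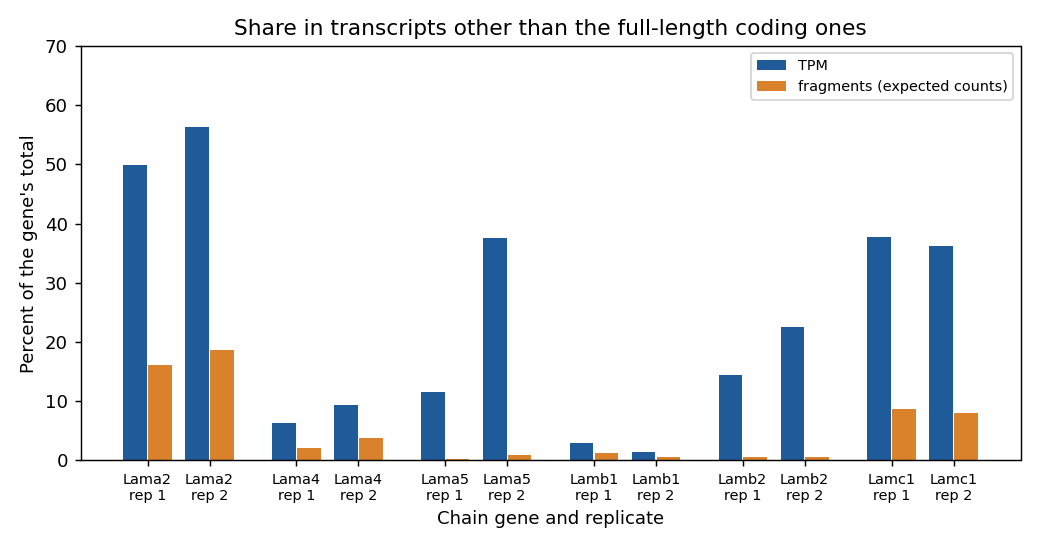
Percent of each detected chain's TPM (blue bars) and of its fragments (orange bars) that fell on transcripts other than the full-length coding ones, by gene and replicate. In every pair of bars the share of TPM is the larger, and Lama5 shows the widest change between replicates, from 11.5% to 37.6% of TPM with under 1% of fragments.

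Summed by class over the 9 genes alone, beta chains were the most abundant and gamma chains the least in both replicates. The alpha chains summed to 66.37 TPM in replicate 1 and 77.76 TPM in replicate 2, the beta chains to 91.13 and 98.0 TPM, and the gamma chains to 56.39 and 48.93 TPM. The beta sum was thus 1.62 and 2.00 times the gamma sum, and the alpha sum 1.18 and 1.59 times. Full-length transcripts gave the same order of classes, with alpha sums of 54.43 and 53.94 TPM, beta sums of 83.68 and 86.46 TPM and gamma sums of 35.32 and 31.29 TPM. The beta sum was then 2.37 and 2.76 times the gamma sum, and the alpha sum 1.54 and 1.72 times. By gene TPM the alpha sum was higher in replicate 2, while by full-length TPM it was nearly the same in both.

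Lama4 supplied the largest share of alpha chain TPM, 48.5% in replicate 1 and 40.7% in replicate 2 by gene TPM. Lama5 followed with 27.3% and 32.5%, and Lama2 with 23.6% and 26.0%. On the full-length scale the shares were 55.4% and 53.1% for Lama4, 29.5% and 29.2% for Lama5, and 14.4% and 16.4% for Lama2. The shares thus moved less between replicates on the full-length scale for Lama4 and Lama5. By expected counts, which are not divided by length, Lama5 was slightly above Lama4, with 40.0% and 38.7% against 39.6% and 37.6% of alpha chain fragments. Lamb1 held 54.1% and 51.0% of the sum of Lamb1 and Lamb2 by gene TPM and 57.2% and 57.0% by full-length TPM. With Lamb3 added to that sum, its share was 51.2% and 49.7% by gene TPM and 55.6% and 55.3% by full-length TPM. Lamc1 held 99.2% and 99.7% of the sum of Lamc1 and Lamc3 by gene TPM.

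**Figure D3:**
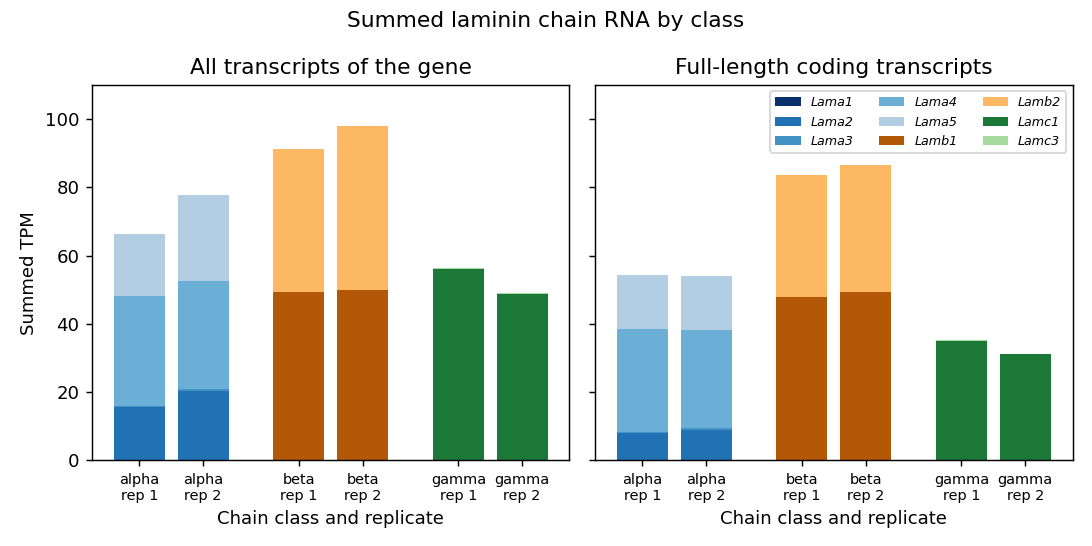
Summed TPM of alpha (blue), beta (brown) and gamma (green) chains in each replicate, stacked by gene, for all transcripts (left) and for full-length coding transcripts (right). The gamma bars, Lamc1 and Lamc3, are the lowest in every panel, and the alpha bars are level between replicates only on the right, at 54.43 and 53.94 TPM.

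Chain levels set a bound on which trimers the RNA allows, since a trimer needs all 3 chains. Of 13 known trimers listed, 6 had every chain at 1 TPM or more in both replicates. These were α2β1γ1, the muscle laminin, with its counterpart α2β2γ1, the vascular α4β1γ1 and α4β2γ1, and the widespread α5β1γ1 and α5β2γ1. The alpha chain was the lowest chain of each of the 6, on both scales and in both replicates. The lowest level was therefore 32.19 and 31.61 TPM for the alpha4 trimers, 18.12 and 25.26 TPM for the alpha5 trimers, and 15.67 and 20.18 TPM for the alpha2 trimers by gene TPM. By full-length TPM it was 30.14 and 28.63, 16.04 and 15.77, and 7.86 and 8.83 TPM.

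The other 7 trimers fell below 1 TPM through Lama1, Lama3 or Lamc3. Lama1 was the lowest chain of α1β1γ1 and α1β2γ1, Lama3 of α3β1γ1 and α3β2γ1, and Lamc3 of α2β1γ3, α4β2γ3 and α5β2γ3. These bounds treat each trimer alone, although one chain serves several trimers, and RNA levels do not give protein levels. The sum of the alpha chains exceeded that of the gamma chains although each alpha chain of an allowed trimer was lower than Lamc1.

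**Figure D4:**
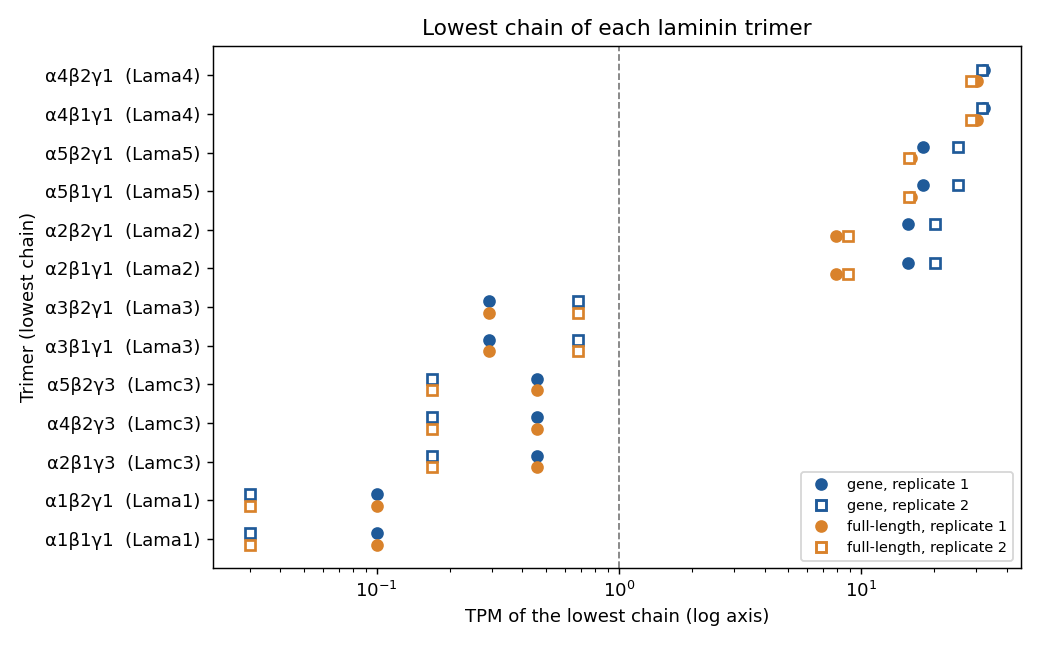
TPM of the lowest chain (log axis) of each of 13 laminin trimers, with that chain in brackets, for replicate 1 (filled circles) and replicate 2 (open squares), by gene (blue) and full-length (orange) TPM. The dashed line is 1 TPM, and the 6 trimers to its right are limited by Lama4, Lama5 or Lama2.

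The replicates were next compared across genes. Differences are log2 ratios of TPM in replicate 2 over replicate 1, with 0.1 TPM added to each value and the median over genes at a mean of 1 TPM set to 0. Of the 6 detected chains, 0 differed by 2-fold or more, where 19.0% of the 11594 genes did. There were 10.1% higher and 8.90% lower in replicate 2. The largest differences among the 6 were 0.45 for Lama5 and 0.34 for Lama2, and the lowest was -0.22 for Lamc1. Their median difference was 0.09 by gene TPM and -0.01 by full-length TPM, where Lama5 came to -0.05 and Lama2 to 0.14. The deposited TPM intervals did not overlap between replicates for 3 of the 6, Lama2, Lama5 and Lamc1, against 73.3% of all 11594 genes.

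Lama1, Lama3 and Lamc3 were under the 1 TPM mean and stood outside that count. Lama3 differed by 0.98 and Lama1 by -0.64, and Lamc3 by -1.07. Lama3 was thus higher in replicate 2 and the others lower, each on few fragments. The deposited intervals lay apart for Lama3, at 0.257 to 0.321 and 0.634 to 0.731 TPM, and for Lama1. They overlapped for Lamc3, at 0.416 to 1.97 and 0.131 to 1.78 TPM.

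**Figure D5:**
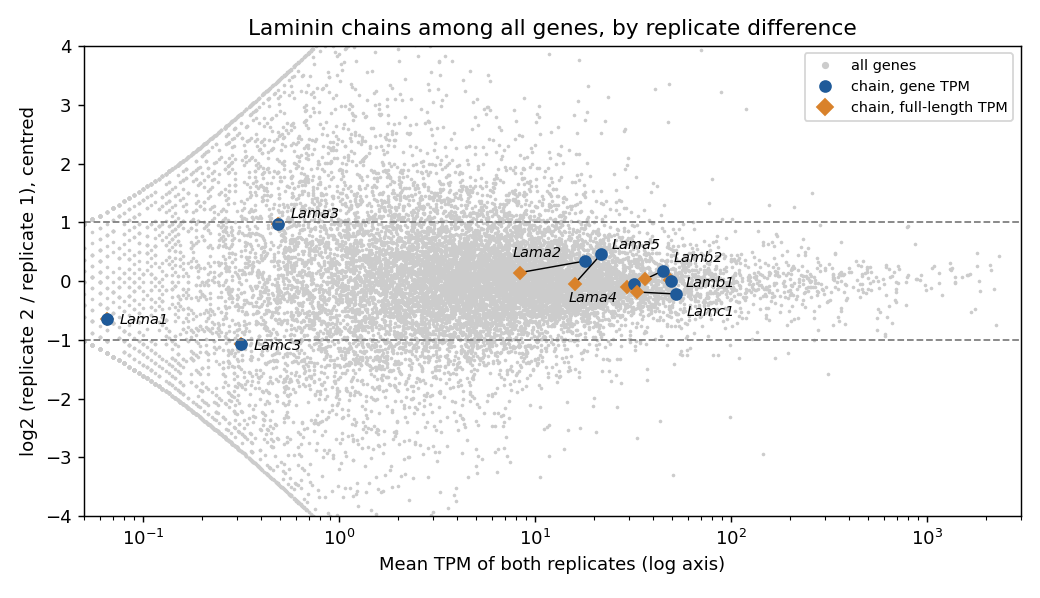
Centred log2 ratio of replicate 2 over replicate 1 against mean TPM (log axis) for all genes (grey) and the laminin chains by gene TPM (blue circles) and full-length TPM (orange diamonds), with lines joining both values of a gene and dashed lines at a 2-fold difference. The 6 detected chains lie between 0.45 and -0.22, and the full-length points of Lama5 and Lama2 lie nearer to 0 than their gene points.

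Markers of cell types that use particular laminins moved to different extents between the replicates. Endothelial markers, 6 of 6 detected, summed to 146 TPM in replicate 1 and 136 TPM in replicate 2. Fibroblast markers, 6 of 6 detected, summed to 386 and 509 TPM. Smooth muscle and pericyte markers, 6 of 6 detected, summed to 326 and 665 TPM, with Tagln at 16.83 and 160.35 TPM, Myh11 at 1.01 and 24.97 TPM, and Cnn1 at 8.14 and 49.01 TPM. Mesothelial and epicardial markers summed to 36.2 and 40.9 TPM, with 4 of 4 detected, of which Wt1, at 1.89 and 6.55 TPM, was over 2-fold higher in replicate 2 and Upk3b, at 18.33 and 16.76 TPM, was not. Lama2, Lama5 and Lamb2 were higher in replicate 2 by gene TPM, and whether the cells behind these markers had a part in that was not tested. The differences by full-length TPM were 0.14, -0.05 and 0.03.

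Epithelial markers stood higher in replicate 2, as did Lama3. Of 8, 4 were detected, beside 47.1% of protein-coding genes. The sum of the 8 was 19.2 TPM in replicate 1 and 121 TPM in replicate 2. Upk3a had 6 and 2950 fragments and Krt5 had 0 and 414, while the defining marker Epcam had 0 and 1. Cdh1, at 0.31 and 0.52 TPM, was not detected and differed by less than 2-fold. Krt8 stood at 4.53 and 31.41 TPM, Krt18 at 3.44 and 20.73 TPM, Upk1b at 5.01 and 20.52 TPM and Krt19 at 5.85 and 13.75 TPM. Lamb3, which encodes a beta chain of epithelia and is not among the 9 genes, stood at a gene level of 5.03 and 2.58 TPM and a full-length level of 2.41 and 2.59 TPM. The part of epithelial cells in the Lama3 difference was not tested. Lung markers summed to 3.90 and 0.22 TPM, thymocyte markers to 5.63 and 0.55 TPM and Schwann markers to 1.05 and 2.46 TPM, with no gene of these lists detected in both replicates and Cd3e at 0 in both.

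The highest of the genes listed as basement membrane partners stood above every laminin chain in mean TPM, while others were low or not detected. Of 25 basement membrane partners 21 were detected, with a median difference between replicates of -0.07. Over all genes 24.2% were detected, and over protein-coding genes 47.1%. Of the 23 partners at a mean of 1 TPM or more, only Col4a3 differed by 2-fold, where 19.0% of all 11594 such genes did. The highest were Sparc, a collagen-binding matrix protein, at 204 ± 23.7 TPM, the collagen IV chain Col4a1 at 143 ± 5.54 TPM, the perlecan gene Hspg2 at 130 ± 6.63 TPM and Col4a2 at 84.4 ± 1.80 TPM (SD, n = 2). Col4a1 and Col4a2, the main network collagens, together came to 233 TPM in replicate 1 and 223 TPM in replicate 2 by gene TPM. The 9 laminin chains came to 213.9 and 224.7 TPM by gene TPM. By full-length transcripts, a scale not computed for the collagens, the 9 chains came to 173 and 172 TPM. Nid1 and Nid2, the nidogens that bind the gamma1 chain, together came to 57.55 and 51.65 TPM. Lamc1 stood at 55.93 and 48.76 TPM by gene and at 34.86 and 31.12 TPM by full-length transcripts. Col4a3 had 266 and 14 fragments and 2.57 and 0.02 TPM, and Col4a4, below that mean, had 514 and 150 fragments and 0.50 and 0.14 TPM.

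Of 14 laminin receptor genes, 12 were detected, with a median difference of -0.02. Over all genes 24.2% were detected, and over protein-coding genes 47.1%. The highest were Rpsa, a ribosomal protein gene also known as the laminin receptor, at 331 ± 15.3 TPM, the alpha5 laminin receptor Bcam at 195 ± 14.4 TPM, the tetraspanin Cd151 at 75.7 ± 0.127 TPM and the integrin beta1 gene Itgb1 at 73.0 ± 13.6 TPM (SD, n = 2). Itga3, an integrin alpha chain that binds alpha5 laminins, was the one receptor gene that differed by 2-fold, at 3.17 TPM in replicate 1 and 12.66 TPM in replicate 2 from 1508 and 2894 fragments. Itga2 and Itgb4 were not detected. Dag1, the dystroglycan gene, stood at 59.57 and 55.35 TPM. Itga7, whose product pairs with integrin beta1 on muscle, stood at 5.40 and 9.65 TPM, and Itga6, which serves endothelial and epithelial cells, at 26.19 and 18.27 TPM. Dag1, Itga7 and Itga6 fell outside the naming rule and were named for their known roles.

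Dystroglycan binds laminin through sugars, and all 14 genes listed for that glycosylation were detected, with a median difference of 0.0053. Dpm3 was the highest at 94.7 ± 34.3 TPM, followed by Dpm1 at 35.6 ± 9.84 TPM, Pomgnt1 at 22.2 ± 2.86 TPM and B4gat1 at 13.9 ± 2.05 TPM (SD, n = 2). Rxylt1, at 7.79 and 3.48 TPM, was the one that differed by 2-fold. Of 6 genes for netrins and related proteins with laminin domains, 2 were detected, Ntn1 at 33.2 ± 3.27 TPM and Ntn4, whose product binds laminin gamma1, at 9.66 ± 0.332 TPM (SD, n = 2), and Ntn5 had 0 fragments in both. Of 10 genes for cleavage and secretion of laminins and collagens 8 were detected, and P4hb was the highest at 62.1 ± 0.933 TPM (SD, n = 2). Hspa5 followed at 44.0 ± 3.15 TPM, Hsp90b1 at 31.7 ± 7.93 TPM and Mia3 at 29.4 ± 21.2 TPM (SD, n = 2). Mia3, a factor for export of bulky cargo, differed by 2-fold, with 14.36 and 44.34 TPM from 1733 and 1340 fragments, so its TPM was higher in replicate 2 and its fragments fewer.

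Reads shared with neighbouring genes touched the chains little. Same-strand genes overlapped Lama2, Lama3, Lama5 and Lamc1, and the highest count among them was that of Gm38009 in Lamc1, with 22 and 217 fragments beside 29554 and 27448 for Lamc1.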

How the data were processed

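Total RNA from 2 replicates of newborn heart was measured. The authors deposited expected counts, estimates of fragments per gene or transcript that are not normalized between libraries. The deposited TPM and FPKM values divide these by effective length and scale them to the library, and, per the file headers, IsoPct is each transcript's percent of its gene's TPM. Per the deposited notes, mm10 and GENCODE M4 were used, while the sources used here name no aligner or program version. TPM is scaled over all entries of the table, and protein-coding genes held 33.3% and 33.6% of it.

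Names, coordinates, coding lengths and sequences were taken from GENCODE M21 (GRCm38) through the identifiers with their versions removed, for 42462 of 43346 genes. Of 125 listed symbols 124 were found, and Ntn3 was not. Some genes of these pathways, and a trimer that needs one of them, are not reported here. Depth was 71186117 and 75105452 expected counts, and the number of fragments limits the low chains. The members, lists and pairs were chosen with earlier results of these data known. Named genes were the 9 chains, Lamb3, up to 4 genes of highest mean TPM in each list, list members that differed by 2-fold at a mean of 1 TPM, and those with 0 counts in both replicates.

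The tools were numpy 2.4.6, pandas 2.3.3 and matplotlib 3.10.9 under Python 3.11.15. Expected counts were rounded to integers for TMM factors (edgeR 4.0.16 with R 4.3.3). Alternatives covered unit, threshold, pseudocount, centring, filter and single replicates, with full-length transcripts added after the data were seen. The calls of 2-fold differences were tested on simulated data with 4-fold changes set in 200 genes. There, counts varied by sampling alone and each gene kept a fixed length. The simulation therefore could not test differences that come from shifts between transcripts or from biological spread.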

Additional observations from a re-analysis of the deposited data

How the results depend on the processing

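Of 82 alternatives over 10 results, 63 kept a value within 1 SD or a count within 1.5 times, and 19 moved it further. Some of the 63 were fixed in advance. With n = 2, a single replicate always lies within 1 SD of the mean, so leaving 1 out could not move a share or ratio. Rescaling to protein-coding genes cannot change a share, and FPKM can do so only by rounding. Counts that changed within 1.5 times included the chains detected, 6 to 8, and the neighbouring pairs apart, 5 to 7. They also included the basement membrane and receptor genes detected, 28 to 38 against 33. The chains that kept their leading transcript changed likewise, from 8 by TPM to 9 by share of expected transcript counts. The trimers allowed rose from 6 to 11 at a threshold of 0.1 TPM and also to 11 with expected counts scaled to library size but not divided by length (length-free counts). The share of Lama4 among alpha chains, 44.6%, was 38.6% by length-free counts, where Lama5 and not Lama4 led the alpha chains, and 54.2% by full-length transcripts, and 40.7% to 48.5% in single replicates. The log2 ratio of Lamb1 to Lamb2, 0.15, was 0.014 by posterior mean TPM, with Lamb2 above Lamb1 in replicate 2, 0.44 by length-free counts and 0.41 by full-length transcripts, and 0.06 to 0.24 in single replicates. That of Lamc1 to Lamc3, 7.07, was 5.35 with a pseudocount of 1, 5.81 by posterior mean TPM and 6.41 by full-length transcripts, and 6.64 to 7.50 in single replicates. The chains that differed by 2-fold, 0 of 6, were 2 of 8 with TMM factors and 2 of 8 by length-free counts, namely Lama3, higher in replicate 2, and Lamc3, lower, which then passed the filter. They were 1 of 9 with no filter, Lamc3, and 1 of 7, Lama3, with TPM rescaled to protein-coding genes. The 19.0% of all genes that differed by 2-fold belongs to the main setting. These other counts have no such share beside them and cannot be read against all genes. The median difference of chains, 0.09, was 0.0031 with TMM factors, -0.0024 with no filter, -0.0044 by length-free counts, 0.18 with protein-coding TPM and -0.014 by full-length transcripts. Full-length transcripts and the limit from genes at 10 to 100 TPM were chosen after seeing the data. No paired analysis was possible because the series has 1 group. With 2 replicates, an SD rests on 1 difference, and the levels of Lama1, Lama3 and Lamc3 rest on few fragments.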
